A study of Arachis hypogaea with 30 samples.

Results

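The cultivar by salt interaction at 12 h asks, gene by gene, whether peanut seedlings of 2 cultivars changed by different amounts after 12 h in salt. It was computed as the change in HY33 (12 h minus 0 h) minus the change in HY9115 (12 h minus 0 h). It draws on 12 of the 30 libraries of the series, 3 in each of 4 groups. The groups were HY33 after 12 h in 100 mM NaCl, HY33 at 0 h in water, HY9115 after 12 h in 100 mM NaCl, and HY9115 at 0 h in water. The labels call HY33 tolerant to salt and HY9115 sensitive to it. All libraries come from poly(A) RNA of whole hydroponic seedlings of Arachis hypogaea salted at the 3-leaf stage. Of the 82955 gene models in the deposited table, the 42311 with an FPKM (fragments counted per length of transcript and size of library) of at least 1 in at least 3 of the 30 libraries were tested.

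Seedlings in salt lose water uptake and growth, accumulate protective sugars and amino acids, and make defence phenolics. A young peanut seedling also still draws on the oil stored in its cotyledons. Lipases free the fatty acids, beta-oxidation in peroxisomes cuts them to acetyl-CoA, and the glyoxylate cycle, with isocitrate lyase and malate synthase as its particular enzymes, turns acetyl-CoA into acids from which sugar is made.

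Library totals ran from 13072324 to 17617692 counts, with a read for 50262 to 51143 genes. Log-scale correlations between libraries of a group, across genes, were 0.984 to 0.991. Only the 0 h sampling was in water, so within a cultivar the action of salt cannot be told apart from hours passed or time of day. The titles number biological replicates without saying whether each is a plant or a pool, so p-values reflect only the scatter among these libraries, part of which can be technical. In whole seedlings, fewer cells of a type and less RNA per cell cannot be told apart. Peanut is a tetraploid whose gene pairs are often nearly identical, and counts within such a pair may be split uncertainly. Coordinates are as deposited, and no source used here names their genome build.

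A gene is called higher where the log2 difference of changes (HY33 minus HY9115) was at least 1 with an adjusted p under 0.05, and lower where it was -1 or below with the same p. All adjusted p-values are from edgeR's quasi-likelihood test with Benjamini-Hochberg adjustment over the 42311 genes. The interaction called 971 genes higher, 2.29% of those tested, and 940 lower, 2.22%. Together these 1911 genes were 4.52%. At any size, 6663 genes (15.7%) passed the adjusted p. The changes themselves were broader. HY33 changed at 10130 genes between 12 h and 0 h, 23.9%, with 4670 risen and 5460 fallen. HY9115 changed at 10067 genes, 23.8%, with 4835 risen and 5232 fallen. Between the cultivars (HY33 minus HY9115), 2417 genes differed at 0 h (5.71%; 1255 higher, 2.97%, and 1162 lower, 2.75%). At 12 h 1590 genes differed (3.76%; 827 higher, 1.95%, and 763 lower, 1.8%).

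In certain places libraries stood apart over whole runs of neighbouring genes. A stretch was defined by a running median over 25 neighbouring genes of the HY33 minus HY9115 difference, at 0 h or 12 h, that departed by more than 0.5 (log2) from its median at 3, 24 and 48 h. There were 6 stretches with 516 genes. The 0 h and 12 h libraries that define the stretches also enter the interaction, so the calls within them are descriptive only. On chromosome 14 (137259716 to 141098105) the 180 genes summed to 3621, 3639 and 3683 CPM (counts scaled to equal library totals) in HY33 at 12 h and to 824, 923 and 933 CPM in HY33 at 0 h. The same genes gave 3791, 3756 and 3813 CPM in HY9115 at 12 h and 3307, 3297 and 3340 CPM in HY9115 at 0 h. All 3 HY33 water libraries were thus low there, and of the 180 genes 131 were called higher and 1 lower, with a median difference of 2.08.

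The stretch on chromosome 12 (117583066 to 118673669) showed the same side, with 26 of 52 genes higher and a median of 1.41. The stretches on chromosome 4 (123230094 to 125922353) and chromosome 2 (100553889 to 102070554) had raised sums in HY33 at 0 h. They held 51 of 173 and 12 of 31 genes called lower, with medians of -0.84 and -0.83. On chromosome 4 HY9115 at 0 h also stood apart, on the low side. It summed to 3215, 3165 and 3158 CPM there, against 4302, 4319 and 4536 CPM in HY9115 at 12 h. Some of these runs departed at other samplings as well. The median HY33 minus HY9115 difference was -0.71 at 48 h beside -0.84 at 0 h on chromosome 12, and -0.79 at 24 h beside -1.62 at 0 h on chromosome 14. It was 0.45 at 24 h beside 0.70 at 0 h on chromosome 4, and 0.44 at 48 h beside 0.72 at 0 h on chromosome 2. The other stretches, on chromosomes 1 and 17, were rich in models annotated as ribosomal RNA (rRNA), 22 of 44 and 21 of 36 genes.

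Over all chromosomes, 101 of the 145 tested rRNA-annotated models were called lower and 2 higher, a median of -3.46. Such RNA should be scarce after poly(A) selection, and its level is read here as a sign of library make-up. All 670 such models, tested or not, took 0.0534%, 0.0604% and 0.0511% of the counts in HY33 at 12 h and 0.0531%, 0.0628% and 0.0635% in HY33 at 0 h. They took 0.0963%, 0.179% and 0.0881% in HY9115 at 12 h, against 0.0166%, 0.0149% and 0.0188% in HY9115 at 0 h. HY9115 at 0 h was below all other libraries and HY9115 at 12 h above them, while the HY33 groups overlapped. What part this plays in other results was not tested. Outside the stretches and without the rRNA-annotated models, 812 of 41693 genes were called higher (1.95%) and 772 lower (1.85%), together 1584 or 3.8%. Each gene named below lies outside them, while the counts given for gene lists include members in the stretches.

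**Figure D1:**
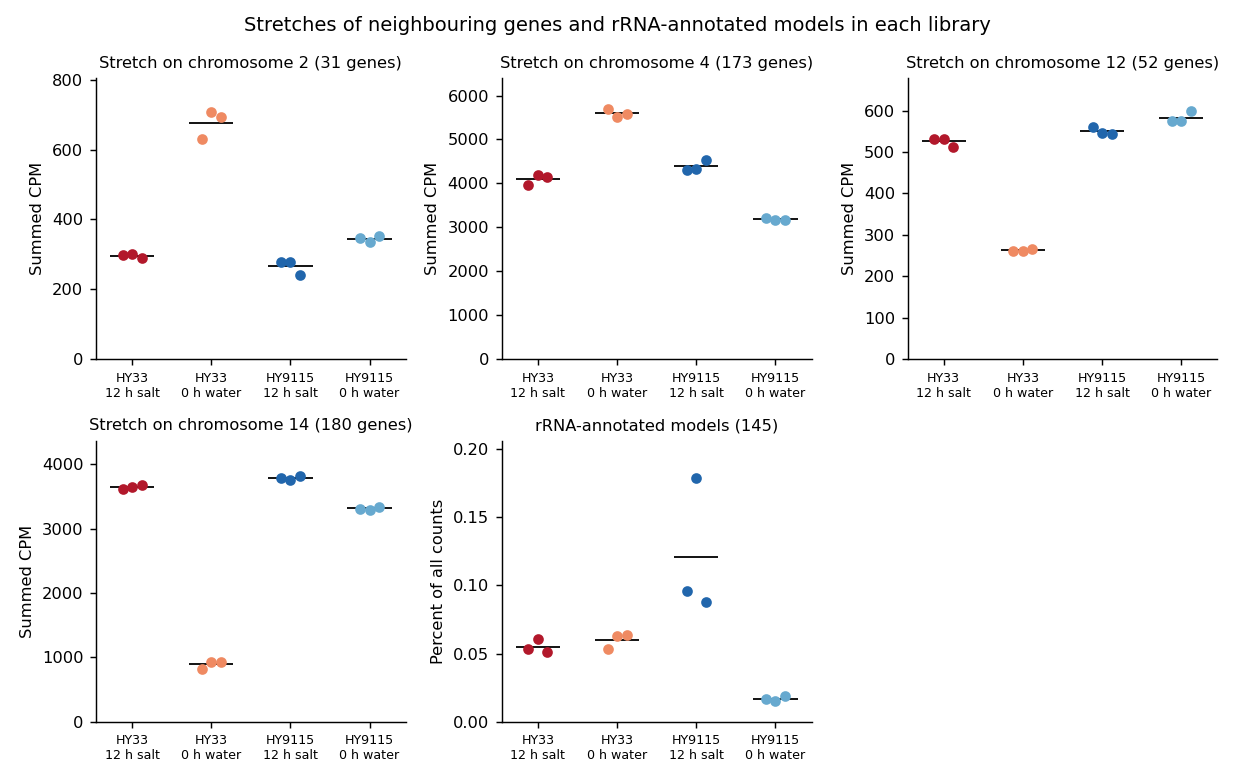
Summed CPM of the 4 stretches that hold no rRNA model, and percent of counts in rRNA-annotated models, for each of the 12 libraries (points) with group means (lines). The percent covers all 670 such models, tested or not, while the panel title gives the 145 tested. In the chromosome 14 stretch the 3 libraries of HY33 at 0 h lie between 824 and 933 CPM and the others between 3297 and 3813 CPM.

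The 812 genes called higher had a median change of 0.91 in HY33 and of -0.79 in HY9115, against -0.03 and -0.02 over all tested genes. Compared at one time, their median HY33 minus HY9115 difference was 0.56 at 12 h and -1.01 at 0 h. The 772 genes called lower had a median change of -0.93 in HY33 and of 0.62 in HY9115, and a median cultivar difference of -0.63 at 12 h and 0.82 at 0 h. In both directions the cultivars' gap was wider in water than after 12 h of salt, and of opposite sign. These medians share their libraries with the calls and describe them only.

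**Figure D2:**
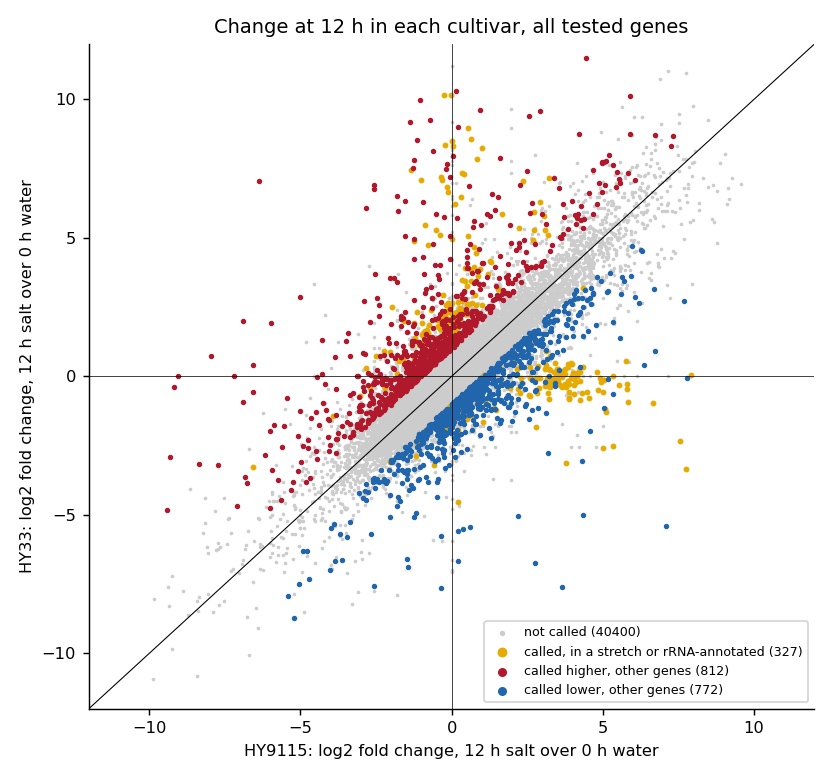
Log2 fold change at 12 h in HY33 (vertical) against HY9115 (horizontal) for the 42311 tested genes, with genes on the diagonal line changing alike. Red points (812) lie above the diagonal, blue points (772) below it, and the called genes in yellow (159 higher, 168 lower) belong to a stretch or are rRNA-annotated.

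Genes of the glyoxylate cycle differed widely. They were low in HY33 and high in HY9115 in water, and most rose in HY33 and fell in HY9115 after 12 h of salt. Of 8 tested isocitrate lyase and malate synthase genes, a list chosen after values were seen, 7 were called higher and none lower, with a median of 4.24. In HY33 5 of the 8 rose and in HY9115 7 fell, with a median change of 2.07 in HY33 and -1.78 in HY9115. Their median cultivar difference was 0.45 at 12 h and -3.56 at 0 h. Together all 10 such genes, tested or not, held 0.160% ± 0.034 of the counts in HY33 at 12 h and 0.0499% ± 0.0103 in HY33 at 0 h, against 0.119% ± 0.0127 in HY9115 at 12 h and 0.372% ± 0.0727 in HY9115 at 0 h (SD, n = 3 each).

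The malate synthase gene Ah11g246200 (chromosome 11, 71652351 to 71655301), whose enzyme joins acetyl-CoA to glyoxylate, had the largest difference of any gene the naming rule chose. It had 23.4, 29.6 and 33.0 FPKM in HY33 at 12 h and 0.04, 0.04 and 0.07 FPKM in HY33 at 0 h. In HY9115 it had 14.5, 10.8 and 6.55 FPKM at 12 h and 24.6, 40.2 and 25.4 FPKM at 0 h. Only 4 reads were counted over the 3 HY33 water libraries, and the other 3 groups of the interaction lay far above. At 3 h, outside the interaction, HY33 also averaged only 0.137 FPKM. The difference was 10.56 ± 0.48 (SE, adjusted p = 2.1e-17 by edgeR), made of a change of 9.19 in HY33 and of -1.37 in HY9115. With so few reads in HY33 at 0 h, this SE understates the counting error.

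The pair of isocitrate lyase genes, which split isocitrate, was far more abundant. Ah13g176400 (chromosome 13, 18133908 to 18139458) had 228, 310 and 354 FPKM in HY33 at 12 h and 109, 123 and 81.4 FPKM in HY33 at 0 h. HY9115 libraries had 259, 217 and 228 FPKM at 12 h and 629, 862 and 617 FPKM at 0 h. The 12 h libraries of the cultivars overlapped, and the 0 h libraries did not. Its difference was 3.08 ± 0.27, and that of Ah03g140700 (chromosome 3, 14186826 to 14191259) was 3.88 ± 0.30, with adjusted p-values of 1.8e-10 and 9.8e-12 by edgeR. Ah03g140700 averaged 207 ± 46.3 FPKM in HY33 at 12 h and 44.0 ± 14.4 in HY33 at 0 h, against 141 ± 15.6 in HY9115 at 12 h and 448 ± 86.8 in HY9115 at 0 h (SD, n = 3 each).

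Among the other malate synthases, Ah10g122700 (4.65 ± 0.34) and Ah01g225300 (4.60 ± 0.30) also rose in HY33 and fell in HY9115. Ah0g001100 (2.77 ± 0.18) fell by 2.00 in HY9115 and changed by 0.76 in HY33, short of the threshold. Ah10g121900 was called on 4, 0, 3 and 22 reads summed in HY33 at 12 h, HY33 at 0 h, HY9115 at 12 h and HY9115 at 0 h, and the call was lost without any of 3 single libraries, HY33 at 0 h replicate 1 and HY33 at 12 h replicates 1 and 3. Ah10g121600 was not called (0.62 ± 0.68).

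**Figure D3:**
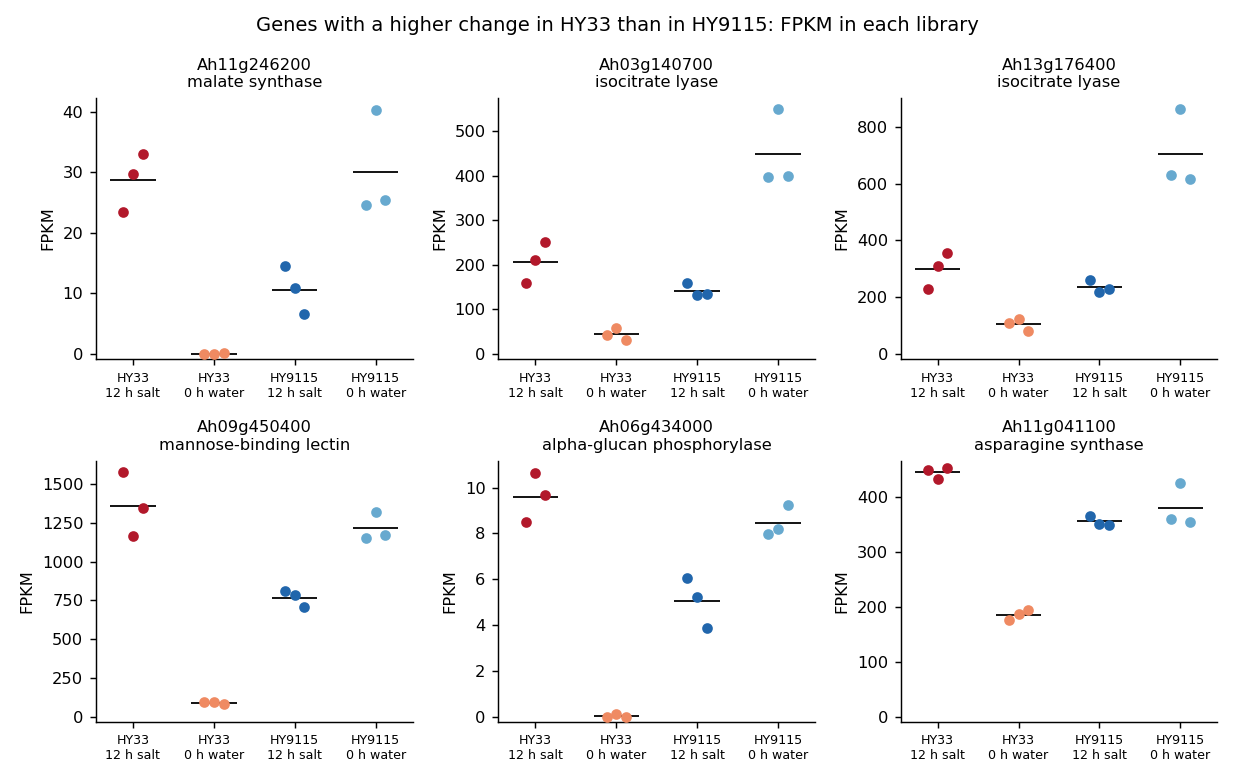
FPKM of 6 genes called higher in each of the 12 libraries (points), with group means (lines). In every panel the 3 libraries of HY33 at 0 h lie below all other libraries.

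Enzymes that feed the cycle or share its steps moved in part. Among the 25 tested genes with the GO term for the glyoxylate cycle, which include those above, 12 were called higher and none lower, in a list chosen after values were seen. The citrate synthase genes Ah01g081300 (2.04 ± 0.15) and Ah11g018200 (1.83 ± 0.16) were among them, and so were the aconitase genes Ah13g173500 (3.04 ± 0.16) and Ah03g138400 (2.47 ± 0.17). Ah13g173500, whose enzyme converts citrate to isocitrate, had 11.7, 14.6 and 12.7 FPKM in HY33 at 12 h and 6.15, 6.33 and 5.79 FPKM in HY33 at 0 h. The HY9115 values were 5.46, 5.99 and 4.46 FPKM at 12 h and 17.8, 23.7 and 20.6 FPKM at 0 h. The order of the cultivars was thus opposite at the 2 times, with no overlap at either.

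The most abundant aconitase gene, Ah18g088500, was not called. It averaged 86.9 ± 0.747 FPKM in HY33 at 12 h and 17.9 ± 0.265 in HY33 at 0 h, against 97.3 ± 9.92 in HY9115 at 12 h and 22.9 ± 0.795 in HY9115 at 0 h, a difference of 0.17 ± 0.10. It rose in both cultivars, by 2.38 and 2.21.

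Upstream of the cycle, the SDP1-type triacylglycerol lipases, which begin the breakdown of stored oil, gave 2 called higher of 5 tested. Ah12g252000 (2.07 ± 0.15) had 7.05, 8.38 and 8.19 FPKM in HY33 at 12 h and 2.72, 3.68 and 3.02 in HY33 at 0 h. In HY9115 it had 5.87, 4.47 and 4.33 FPKM at 12 h and 8.09, 8.34 and 8.46 at 0 h. The HY33 water libraries were again the lowest. Of 24 beta-oxidation genes 4 were called higher and none lower (16.7%, beside 4.52% of all tested genes). They were the multifunctional protein genes Ah01g360200 (1.58 ± 0.13) and Ah11g425700 (1.38 ± 0.13) and the acyl-CoA oxidases Ah03g182300 (1.11 ± 0.14) and Ah13g210800 (1.01 ± 0.12). The last lost its call without any of 4 single libraries (0.91 to 0.98), namely HY33 at 12 h replicate 3, HY33 at 0 h replicate 1, HY9115 at 12 h replicate 3 and HY9115 at 0 h replicate 2. These lists were also chosen after values were seen. The cotyledon and seed storage markers (40 tested of 62) gave 3 called higher and none lower (7.5%), with a median of -0.05. Those 3 are both called lipases (Ah12g252000 and Ah02g202200) and Ah10g356600 (2.86). All 62 markers, tested or not, summed to 0.147% to 0.153% of the counts in HY33 at 12 h and 0.0945% to 0.0969% in HY33 at 0 h, against 0.158% to 0.168% in HY9115 at 12 h and 0.0963% to 0.0980% in HY9115 at 0 h. The summed markers of the cultivars thus overlapped at 0 h. Whether the share of cotyledon in the samples bears on the glyoxylate genes was not tested.

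Lectin genes were also mostly called higher. Of 12 tested genes annotated with mannose binding, again a list chosen after values were seen, 10 were called higher and none lower (median 1.84). In HY33 10 of the 12 rose and 1 fell, while in HY9115 2 rose and 2 fell. Legume lectins of this kind bind sugars and are stored in seeds and vegetative organs. Ah09g450400 (chromosome 9, 119115410 to 119116597) had 1577, 1164 and 1344 FPKM in HY33 at 12 h and 95.8, 94.1 and 79.0 FPKM in HY33 at 0 h. HY9115 libraries had 809, 788 and 705 FPKM at 12 h and 1153, 1320 and 1171 FPKM at 0 h. The 0 h groups lay more than 10-fold apart. Its difference was 4.57 ± 0.25 (adjusted p = 1.7e-15 by edgeR), with a change of 4.02 in HY33 and of -0.55 in HY9115.

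Ah19g452800 on chromosome 19 (146352563 to 146353909) differed by 4.60 ± 0.23 and averaged 635 ± 112 FPKM in HY33 at 12 h and 52.6 ± 2.14 in HY33 at 0 h, against 383 ± 24.4 in HY9115 at 12 h and 780 ± 64.3 in HY9115 at 0 h (SD, n = 3 each). Ah09g452300 (4.57 ± 0.42) got most of its difference from HY9115, where it fell by 3.87. Of the 12 lectin genes 11 lie in groups on chromosomes 9 and 19, so their counts may share reads. Ah07g262200, which lies apart, had a difference of 0.00 ± 0.16 and fell by 1.15 in each cultivar.

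Of 11 alpha-glucan phosphorylase genes, whose enzymes break down starch, 5 were called higher and none lower, in a list chosen after values were seen. Ah06g434000 (chromosome 6, 115744545 to 115750616) had 8.50, 10.7 and 9.66 FPKM in HY33 at 12 h and 0, 0.10 and 0 FPKM in HY33 at 0 h. It had 6.06, 5.24 and 3.88 FPKM in HY9115 at 12 h and 7.96, 8.18 and 9.25 FPKM in HY9115 at 0 h. Its difference was 8.77 ± 0.37 (adjusted p = 3e-18 by edgeR). With 4 reads in all in the HY33 water libraries, this SE understates the counting error. The remaining phosphorylases called higher differed by 1.25 to 1.79.

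The nitrogen list had 6 of 34 members called higher and 2 lower (23.5%, beside 4.52% of all tested genes). Of 11 asparagine synthase genes, which make the amide that legumes use to move nitrogen, 4 were called higher, in a list also chosen after values were seen. Ah11g041100 (chromosome 11, 4124442 to 4132205) had 451, 433.6 and 453 FPKM in HY33 at 12 h and 176, 186 and 194 FPKM in HY33 at 0 h. The HY9115 values were 367, 352 and 350 FPKM at 12 h and 361, 426 and 356 FPKM at 0 h. HY9115 was near 1 level at both times, and HY33 rose by 1.37, a difference of 1.35 ± 0.11. Ah11g044300 rose in both cultivars, by 2.93 in HY33 and 1.52 in HY9115, a difference of 1.42 ± 0.12. The proline list gave 2 higher (1 outside the stretches) and 2 lower of 21.

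Protective sugar genes went both ways, with 4 higher and 4 lower of 49 in the galactinol, raffinose and trehalose list. That is 16.3%, beside 4.52% of all tested genes. The 4 higher were raffinose synthases, out of 12 tested, a grouping made after values were seen. Ah13g315800 (chromosome 13, 49040742 to 49052972) had 9.49, 12.6 and 11.3 FPKM in HY33 at 12 h and 0.02, 0 and 0 FPKM in HY33 at 0 h. It had 10.6, 8.57 and 8.41 FPKM in HY9115 at 12 h and 0.20, 0.24 and 0.05 FPKM in HY9115 at 0 h. It was near 0 in water and on after 12 h of salt in both cultivars. At 3 h, outside the interaction, it averaged 0.0367 FPKM in HY33 and 2.57 FPKM in HY9115. The difference of 4.22 ± 0.89 rests on 1 read in HY33 at 0 h against 21 in HY9115 at 0 h. The ratio of 12 h to 0 h in HY33 was 1450 (exact 95% interval 260 to 57400, counting error only). Ah11g456900 (1.25 ± 0.13) rests on more reads. It had 57.4, 57.4 and 67.03 FPKM in HY33 at 12 h and 8.83, 9.46 and 9.07 FPKM in HY33 at 0 h. In HY9115 it had 41.2, 36.9 and 30.01 FPKM at 12 h and 12.5, 13.5 and 13.3 FPKM at 0 h. The galactinol synthase Ah19g203200, which makes the donor for raffinose, was called lower (-2.03 ± 0.32). It rose by 3.59 in HY33 and by 5.62 in HY9115, and the level it reached at 12 h differed by 0.19, short of the threshold.

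Several enzymes rose far more in HY33, also above the HY9115 level at 12 h. The UDP-glycosyltransferase Ah11g039100 (chromosome 11, 3839527 to 3842158), of a family that attaches sugars to small molecules, had 35.6, 37.1 and 68.2 FPKM in HY33 at 12 h and 1.08, 0.65 and 0.25 FPKM in HY33 at 0 h. It had 2.91, 3.91 and 3.24 FPKM in HY9115 at 12 h and 6.42, 9.20 and 5.55 FPKM in HY9115 at 0 h. HY33 at 12 h lay above all other libraries, and the difference was 7.24 ± 0.51 (adjusted p = 1e-12 by edgeR). Ah01g058900, of the same annotation on chromosome 1 (6946973 to 6950131), differed by 7.84 ± 0.58 and was 3.23 higher in HY33 than in HY9115 at 12 h.

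The 9-lipoxygenases, which oxidise fatty acids to oxylipins other than jasmonate, gave 5 higher and 3 lower of 25, in a list chosen after values were seen. Ah08g145300 (chromosome 8, 25521037 to 25526246) had 63.9, 79.6 and 78.5 FPKM in HY33 at 12 h and 0.91, 0.96 and 0.80 FPKM in HY33 at 0 h. HY9115 libraries had 23.9, 19.9 and 18.5 FPKM at 12 h and 7.0, 9.08 and 7.04 FPKM at 0 h. It rose in both cultivars, by 6.48 and 1.55, and the difference was 4.94 ± 0.38 (adjusted p = 7.9e-12 by edgeR). The abundant Ah09g111700 (1.53 ± 0.13) averaged 374 FPKM in HY33 at 12 h and 183 FPKM in HY33 at 0 h, against 172 FPKM in HY9115 at 12 h and 245 FPKM in HY9115 at 0 h. Alpha-dioxygenases, another oxylipin family grouped after values were seen, gave 4 higher of 6 tested, with Ah15g375800 at 3.42 ± 0.27.

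In the flavonoid and stilbene list 14 of 124 members were called lower and 3 higher (2 outside the stretches). That is 13.7%, beside 4.52% of all tested genes. The list median was -0.31 beside -0.01 for all tested genes. The 43 chalcone and stilbene synthase type members had 7 lower, none higher and a median of -0.51. The other 81 members had 7 lower, 3 higher and a median of -0.06. The members mostly rose in both cultivars, with a median change of 1.55 in HY33 and 1.80 in HY9115, and of the 14 called lower 13 rose in HY9115 and 10 in HY33. Stilbene synthases, which make resveratrol-type defence compounds, gave 6 lower and none higher of 26, in a list chosen after values were seen. Ah14g110700 (chromosome 14, 12768294 to 12770102) had 22.6, 25.7 and 28.8 FPKM in HY33 at 12 h and 4.66, 4.50 and 3.10 FPKM in HY33 at 0 h. It had 43.2, 44.0 and 38.5 FPKM in HY9115 at 12 h and 1.45, 1.92 and 2.71 FPKM in HY9115 at 0 h. HY33 was lower at 12 h and higher at 0 h with no overlap, a difference of -1.73 ± 0.24 (adjusted p = 3.6e-06 by edgeR).

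The flavanone 3-dioxygenase type gene Ah12g338100 (chromosome 12, 104187201 to 104192351), of an early flavonoid step, differed by -2.09 ± 0.23. It had 10, 10.9 and 11.2 FPKM in HY33 at 12 h and 3.97, 4.02 and 4.57 FPKM in HY33 at 0 h. The HY9115 values were 24.6, 26.8 and 20.3 FPKM at 12 h and 2.13, 2.31 and 2.24 FPKM at 0 h. Both cultivars rose, HY33 by 1.45 and HY9115 by 3.54. On the other side, and not in this list, was Ah17g322600, annotated as a deoxychalcone synthase and called higher. It averaged 6.48 ± 0.475 FPKM in HY33 at 12 h and 2.74 ± 0.805 in HY33 at 0 h, against 0.04 ± 0.0693 in HY9115 at 12 h and 1.17 ± 0.154 in HY9115 at 0 h. It was at 1 read over the HY9115 libraries at 12 h, where the ratio to 0 h was 0.0356 (exact 95% interval 0.000873 to 0.214, counting error only).

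The 4 tested genes with the orthology term of feruloyl-CoA 6-hydroxylase, the enzyme that leads to the coumarin scopoletin, were grouped after their values were seen, and all were called lower. They fell steeply in HY33, and the 3 abundant ones also in HY9115. Ah09g270500 (chromosome 9, 87584518 to 87588782) had 1.14, 0.93 and 1.05 FPKM in HY33 at 12 h and 134, 160 and 138 FPKM in HY33 at 0 h. It had 4.35, 2.81 and 2.01 FPKM in HY9115 at 12 h and 58.6, 48.6 and 56.8 FPKM in HY9115 at 0 h. HY33 was the higher cultivar in water and the lower one after 12 h of salt, a difference of -2.98 ± 0.28 (adjusted p = 1e-09 by edgeR). Ah19g342200 differed by -2.60 ± 0.30 and Ah19g107400 by -3.53 ± 0.52.

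Among the largest lower differences outside rRNA were the following single genes. Ah06g251100 (chromosome 6, 78719882 to 78723784), annotated as a beta-galactosidase, had 26.6, 24.1 and 23.0 FPKM in HY33 at 12 h and 26.8, 25.1 and 30.5 FPKM in HY33 at 0 h. In HY9115 it had 24.98, 23.8 and 25.3 FPKM at 12 h and 0.08, 0 and 0.26 FPKM at 0 h. One group, HY9115 in water, was near 0 with 4 reads in all, and the other groups overlapped. Its difference was -7.83 ± 0.30, an SE that understates the counting error of so few reads. Ah08g298300 (chromosome 8, 44588318 to 44598151), annotated as an antiporter, had 0.44, 0.32 and 0.30 FPKM in HY33 at 12 h and 35.7, 44.2 and 57.4 FPKM in HY33 at 0 h. It had 0.91, 0.67 and 0.21 FPKM in HY9115 at 12 h and 2.23, 1.61 and 1.64 FPKM in HY9115 at 0 h. Of the 4 groups only HY33 in water was high, and the difference was -5.44 ± 0.53 (adjusted p = 4.9e-09 by edgeR). At 3 h, outside the interaction, HY33 still averaged 15.6 FPKM and HY9115 3.39 FPKM.

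A mirror case among the genes called higher was Ah17g032300 (chromosome 17, 2769823 to 2772444), annotated with double-stranded DNA binding. It had 5.21, 4.99 and 4.81 FPKM in HY33 at 12 h and 0.02 FPKM in each HY33 library at 0 h. HY9115 libraries had 15.0, 14.5 and 12.6 FPKM at 12 h and 16.0, 17.7 and 17.3 FPKM at 0 h. HY33 in water was at 3 reads over the group, so that the ratio of 12 h to 0 h was 214 (exact 95% interval 73.0 to 1040, counting error only).

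Cysteine proteases of the type known from leaf senescence gave 2 called lower of 6 tested, in a list chosen after values were seen. Ah03g017200 (chromosome 3, 1508698 to 1510617) had 6.74, 8.57 and 7.52 FPKM in HY33 at 12 h and 7.14, 12.3 and 6.91 FPKM in HY33 at 0 h. It had 35.4, 40.1 and 47.7 FPKM in HY9115 at 12 h and 1.5, 1.46 and 0.69 FPKM in HY9115 at 0 h. The HY33 groups overlapped, while HY9115 rose by 5.17, and the difference was -5.28 ± 0.42 (adjusted p = 2.3e-11 by edgeR). Ah13g036600 (-4.21 ± 0.66) averaged 3.63 FPKM in HY33 at 12 h and 1.5 FPKM in HY33 at 0 h, against 27.8 FPKM in HY9115 at 12 h and 0.617 FPKM in HY9115 at 0 h.

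The cell wall list gave 8 higher and 5 lower of 159 (8.18%, beside 4.52% of all tested genes). Within the cultivars, 65 members fell and 17 rose in HY33, and 62 fell and 21 rose in HY9115. The xyloglucan endotransglucosylase Ah08g180400 (chromosome 8, 29429437 to 29431036), which remodels walls in growing tissue, had 17.4, 19.4 and 18.0 FPKM in HY33 at 12 h and 65.3, 67.8 and 64.7 FPKM in HY33 at 0 h. It had 14.0, 9.59 and 9.12 FPKM in HY9115 at 12 h and 230, 280 and 233 FPKM in HY9115 at 0 h. HY33 was lower in water and higher in salt. It fell by 1.75 in HY33 and fell by 4.38 in HY9115, a difference of 2.64 ± 0.16 (adjusted p = 1.8e-14 by edgeR). Ah18g062200, of the same annotation, differed by 2.94 ± 0.17.

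The peroxidase list, of enzymes that cross-link walls, gave 10 higher and 4 lower of 98 (14.3%, beside 4.52% of all tested genes). The SWEET-type sugar transporter gene Ah17g416500 fell further in HY33. It averaged 3.99 FPKM in HY33 at 12 h and 60.8 FPKM in HY33 at 0 h, against 2.97 FPKM in HY9115 at 12 h and 16.8 FPKM in HY9115 at 0 h, a difference of -1.44 ± 0.23. The fatty acyl reductase Ah18g072600, of suberin and wax synthesis, differed by -2.25 ± 0.28. The auxin-conjugating GH3 gene Ah01g129300 differed by 2.78 ± 0.39. It averaged 35.3 FPKM in HY33 at 12 h and 0.15 FPKM in HY33 at 0 h, against 25.1 FPKM in HY9115 at 12 h and 0.737 FPKM in HY9115 at 0 h. The auxin list as a whole gave 2 higher and 6 lower of 200, 4.0% beside 4.52% of all tested genes.

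Several lists had shares below the 4.52% of all tested genes. Of 133 heat shock genes 4 were called higher (2 outside the stretches) and 1 lower, with a median change of 1.14 in HY33 and 1.06 in HY9115. Of 85 abscisic acid genes none was called higher and 1 lower. Of 48 aquaporins 1 was called lower, Ah03g030000 (-1.03 ± 0.24, and -0.92 to -0.86, not called, without HY33 at 12 h replicate 2, HY33 at 0 h replicate 2, HY9115 at 12 h replicate 3 or HY9115 at 0 h replicate 2), with a median change of -0.71 in HY33 and -0.64 in HY9115 over the list. By edgeR none of 30 ethylene genes was called (8 had an unadjusted p under 0.05) and none of 50 antioxidant genes (19 had one), and DESeq2 called none of either. Of 64 histones 1 was higher and 1 lower, and of 53 cyclin and DNA replication genes 1 was lower. The clock list gave 7 lower of 134 (5.22%), and these 7 were chalcone and stilbene synthase type genes that its pathway term includes. None of its other 91 members was called.

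Of 108 AP2/ERF transcription factor genes 5 were called higher and none lower, 4.63% beside 4.52% of all tested genes. Of 192 MYB genes, in a list chosen after values were seen, 3 were called higher and 12 lower (7.81%). Outside the stretches 1 MYB gene was called higher and 11 lower. AP2-type Ah11g483800 (1.82 ± 0.14) rose by 1.62 in HY33 and changed by -0.20 in HY9115. MYB gene Ah01g438800 (-1.82 ± 0.28) fell by 1.23 in HY33 and changed by 0.59 in HY9115. Glutathione S-transferases gave 1 higher and 5 lower of 81 (7.41%), and phenylpropanoid and lignin genes 4 and 1 of 72 (6.94%). Proton pumps and potassium uptake gave 3 and 1 of 56 (7.14%), and iron and zinc genes 4 and none of 25 (16.0%). Pathogenesis-related genes gave 1 and 2 of 23 (13.0%), and sugar genes 4 and 2 of 52 (11.5%). The remaining lists had shares near 4.52%. They were jasmonate (2 and 1 of 52, 5.77%), cytokinin and gibberellin (2 and 1 of 56, 5.36%), and suberin, cutin and wax (1 and 2 of 65, 4.62%). Calcium and oxidase signalling gave 3 and 3 of 108 (5.56%), with 2 and 1 outside the stretches.

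**Figure D4:**
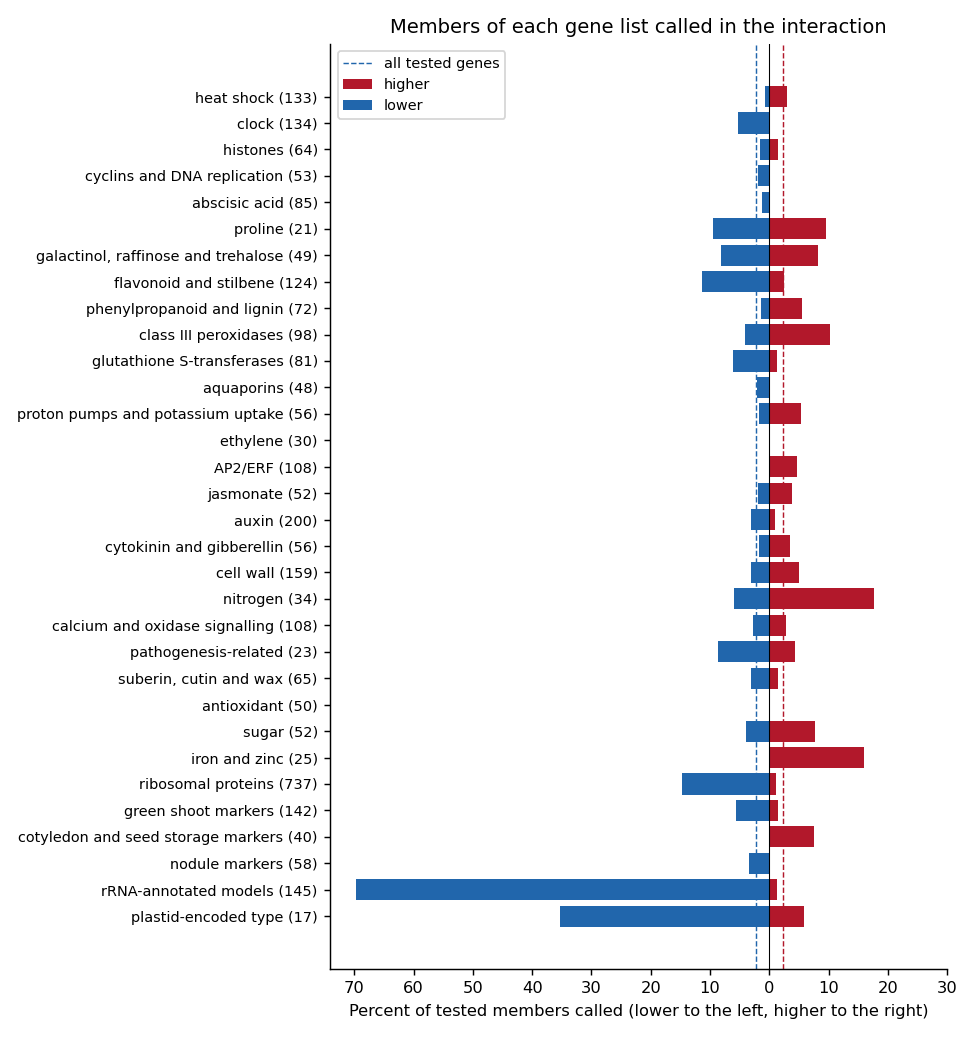
Percent of the tested members (number in brackets) called higher (red, right) or lower (blue, left), with dashed lines at 2.29% and 2.22% for all tested genes. Lists added after values were seen are left out, and those shown were chosen with earlier results of these data known. Among these lists the longest bar is that of rRNA-annotated models, of which 101 of 145 were lower, and the ribosomal list contains 140 of them.

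Green shoot markers gave 2 higher and 8 lower of 142 (7.04%, beside 4.52% of all tested genes). Of the 8 lower, 5 were of plastid-encoded type. All 509 green shoot markers, tested or not, summed to 1.37% to 1.43% of the counts in HY33 at 12 h and 3.89% to 3.94% in HY33 at 0 h, against 1.52% to 1.66% in HY9115 at 12 h and 2.96% to 3.32% in HY9115 at 0 h. Models of plastid-encoded type gave 1 higher and 6 lower of 17 (41.2%), with a median of 0.03. All 299 such models, tested or not, averaged 0.0268% of the counts in HY33 at 12 h and 0.0321% in HY33 at 0 h. They averaged 0.0367% in HY9115 at 12 h and 0.0316% in HY9115 at 0 h. Nodule markers gave none higher and 2 lower of 58 (3.45%, beside 4.52% of all tested genes). The ribosomal list gave 7 higher and 7 lower of 597 once rRNA-annotated models were set aside. Both shares were below the 2.29% higher and 2.22% lower of all tested genes. The plastid-type gene Ah0g056800, annotated as a photosystem II reaction centre protein, had 12.9, 15.1 and 8.92 FPKM in HY33 at 12 h and 30.6, 32.1 and 36.2 FPKM in HY33 at 0 h. It had 17.6, 28.5 and 16.1 FPKM in HY9115 at 12 h and 2.69, 2.79 and 2.27 FPKM in HY9115 at 0 h. For this gene HY9115 in water was the lowest group, as with rRNA, and the difference was -4.44 ± 0.27. The summed plastid-type models did not share that order, being lowest in HY33 at 12 h. The part of this in other results was not tested.

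Opposite calls in the cultivars were few. HY33 rose and HY9115 fell at 47 of the 42311 genes (0.111%), 37 of them outside the stretches and rRNA-annotated models (0.0887%). HY33 fell and HY9115 rose at 26 genes (0.0614%), 19 of them outside (0.0456%). Among the genes described above, Ah03g140700, Ah13g176400, Ah13g173500, Ah03g138400, Ah15g375800 and 3 malate synthases (Ah11g246200, Ah10g122700 and Ah01g225300) rose in HY33 and fell in HY9115. Ah01g058900 and Ah17g322600 did so too, and so did Ah18g364800 (chromosome 18, 118321915 to 118328225), annotated with choline kinase activity. Ah18g364800 had 13.7, 11.1 and 10.5 FPKM in HY33 at 12 h and 3.48, 4.53 and 4.65 FPKM in HY33 at 0 h. It had 0.04, 0.09 and 0 FPKM in HY9115 at 12 h and 0.56, 0.86 and 0.42 FPKM in HY9115 at 0 h. HY33 was above HY9115 in every library at both times. With 3 reads in HY9115 at 12 h, the ratio of 12 h to 0 h there was 0.0782 (exact 95% interval 0.0155 to 0.245, counting error only).

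The other samplings place these values in time. The isocitrate lyase gene Ah13g176400 averaged 104, 136, 298, 103 and 78.4 FPKM in HY33 at 0, 3, 12, 24 and 48 h, and 703, 527, 235, 72.9 and 22.9 FPKM in HY9115. HY33 peaked at 12 h, while HY9115 was highest in water and lower at each later sampling. The lectin Ah09g450400 averaged 89.6, 491, 1360, 587 and 499 FPKM in HY33, and 1210, 1140, 767, 886 and 158 FPKM in HY9115. The 9-lipoxygenase Ah08g145300 stayed under 1 FPKM on average in HY33 at 0 and 3 h (0.890 and 0.957) and reached 74.0 at 12 h, whereas HY9115 had its highest mean, 40.1 FPKM, at 3 h.

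The protease Ah03g017200 peaked at different samplings. It averaged 7.61 FPKM at 12 h and 50.6 FPKM at 24 h in HY33, against 41.1 FPKM at 12 h and 29.4 FPKM at 24 h in HY9115. The beta-galactosidase type gene Ah06g251100 was near 0 in HY9115 at 0 h alone, with means of 18.4, 24.7, 10.6 and 9.82 FPKM at 3, 12, 24 and 48 h. Ah12g338100 had its highest mean at 3 h in each cultivar, 28.8 FPKM in HY33 and 93.9 FPKM in HY9115. The 0 h samples used in the interaction are thus the same ones for every later time, and a 0 h level that stands apart enters all of them.

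**Figure D5:**
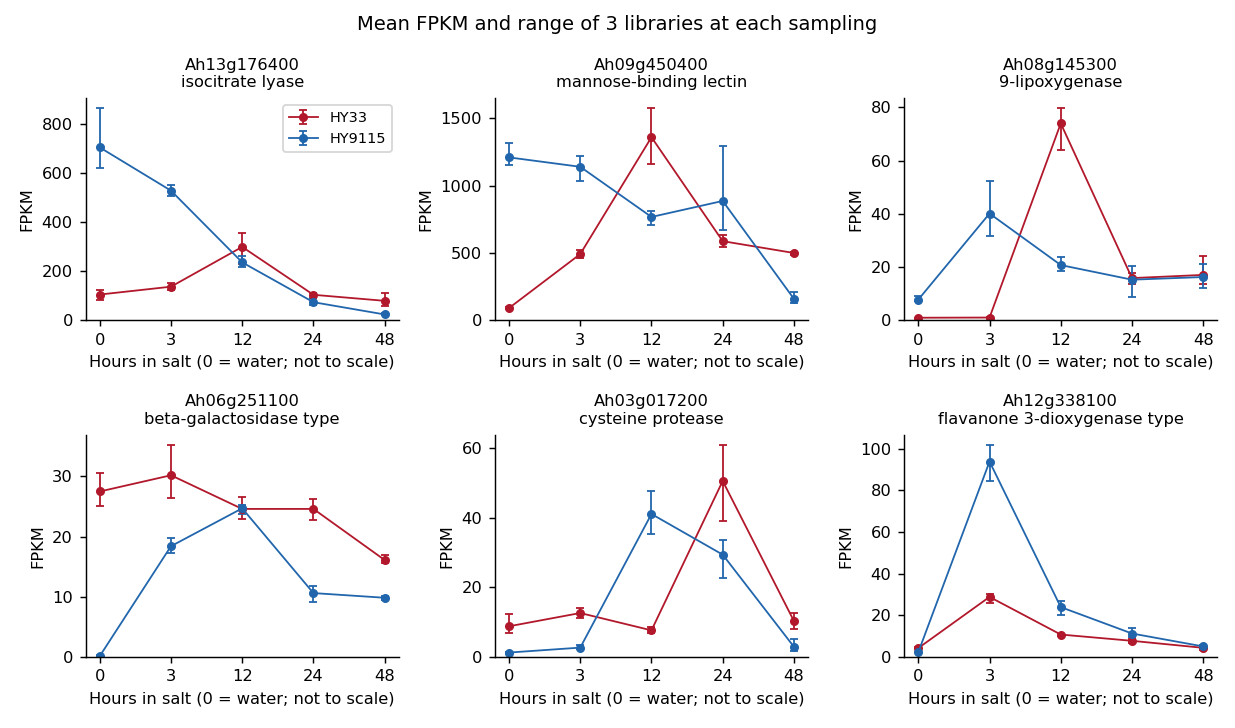
Mean FPKM (points) and range of the 3 libraries (bars) of 6 called genes at each sampling in HY33 (red) and HY9115 (blue). The isocitrate lyase and lectin genes peak at 12 h in HY33, at 298 and 1360 FPKM, while in HY9115 they are highest at 0 h.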

How the data were processed

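Whole-seedling poly(A) RNA libraries of 2 peanut cultivars were grouped from the sample titles. The submitters' processing notes name HTSeq 0.6.1, HISAT2 2.2.1, cutadapt 1.9.1 and DESeq2, with no order. Neither a genome build nor a strand setting is stated in any source used here, and reads of overlapping or antisense partners cannot be told apart. The deposited table holds a whole-number read count per gene and library, and the totals differ between libraries as raw counts of the authors do. The deposited FPKM values equal those counts per exonic length and library total in 100% of values (tolerance 0.005).

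Counts of all 30 libraries were fitted with edgeR 4.0.16 in R 4.3.3 (limma 3.58.1, data.table version 1.17.8), with TMM factors (0.804 to 1.109), 1 coefficient per group, glmQLFit and glmQLFTest. The common biological coefficient of variation over all genes was 0.0929. The test itself uses an estimate of the spread for each gene, shared by all groups. SE is the log2 difference over the square root of F. For a gene with few reads in a group, this SE can fall below the counting error. The tested genes hold 99.57% of counts. Every replicate pair differed beyond counting noise, with a chi-square over its degrees of freedom of 2.77 to 8.56. On simulated counts for the 42311 genes of this interaction, 38% of 100 genes changed 2-fold and 96% of 100 changed 4-fold were called, as were 0.0071% of unchanged genes. The simulation gave every gene the common spread and 1 mean over all groups, and changed only genes averaging at least 1 CPM. Its rates therefore need not hold for genes with wider spread or few reads.

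The comparison, gene lists and stretches were chosen with earlier results of these data known. Lists follow KEGG orthology, pathway and GO identifiers deposited with the counts, which annotate 27351 of the tested genes, and lists added after values were seen are named as such beside their counts. Named genes are called genes outside the stretches with a mean FPKM of at least 5 in 1 of the 4 groups and an annotation: the 10 largest per direction, 2 per list, and the 5 largest called in opposite directions. The text describes some of these and further tested members of the added lists, chosen after their values were seen. Where a group has 1 to 3 reads, the ratio is given with an exact 95% interval. Alternatives were DESeq2 1.42.0, its size factors in edgeR, library totals, other FPKM filters, the 12 libraries alone, a replicate block, other thresholds, leaving out each library, and leaving out the stretches. Sequences were not used here.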

Additional observations from a re-analysis of the deposited data

Results flagged for a closer look

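The interaction is itself a test of a difference between the cultivars' changes, and it called 971 genes whose change in HY33 exceeded that in HY9115 and 940 whose change fell short of it, by edgeR's quasi-likelihood test. Called in opposite directions in the cultivars, with the largest differences, were the malate synthases Ah11g246200 (10.56) and Ah10g122700 (4.65), the UDP-glycosyltransferase Ah01g058900 (7.84), Ah17g322600 (5.61) and Ah18g364800 (4.99). In HY9115 at 12 h Ah17g322600 had 1 read and Ah18g364800 had 3 reads over 3 libraries, so their fitted differences are no bounds.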

How the results depend on the processing

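Limits are groups of 3 libraries, 1 water sampling and near-identical gene copies, and the stretches and rRNA-annotated models held 159 of the higher and 168 of the lower calls. The 1911 called genes became 1997 with DESeq2's Wald test and 1905 with library totals, and 98.0% and 98.1% of the 1911 were called there too. Requiring an FPKM of 5 left fewer genes to test: 1176 were called in the interaction (617 higher, 559 lower), 6272 in HY33 at 12 h against 0 h (3110 lower), 6229 in HY9115 at 12 h against 0 h (2986 lower), 1344 between cultivars at 0 h (672 in each direction) and 842 at 12 h (436 higher, 406 lower). With no minimum size 6663 genes passed (3285 higher, 3378 lower). Leaving out each library in turn gave 1646 to 2080 called genes (869 to 1045 higher, 748 to 1035 lower), with 79.7% to 90.2% of the 1911 among them. It gave 9922 to 10164 for HY33, 9749 to 10223 for HY9115, 2214 to 2445 for the cultivars at 0 h and 1455 to 1644 at 12 h. Called members then numbered 6 to 7 for the glyoxylate cycle, 10 for lectins in each case, 96 to 106 for rRNA-annotated models and 14 to 18 for flavonoid and stilbene genes. Without the stretches 3 heat shock, 3 calcium and oxidase signalling, 76 ribosomal and 68 rRNA-annotated members were called. With a replicate block 1886 genes were called. The replicate numbers were not taken as pairs, since correlations of same-numbered deviations ran from -0.24 to 0.148 over 18 pairs and 3 of 12 libraries correlated best with their own number. For 228 single genes, 4174 of 4305 recomputed differences kept their direction and side of the threshold, 125 lost the call, 6 gained it and none reversed.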
